A study of Microtus ochrogaster with 40 samples.

Results

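The nuclei described here were chosen by their counts of 2 transcripts: Otof (ENSMOCG00000006641), which encodes otoferlin, a calcium sensor of vesicle release, and Foxp2 (ENSMOCG00000018674), which encodes a forkhead transcription factor. A barcode entered with at least 1 Otof UMI (a UMI marks 1 captured RNA molecule), at least 2 Foxp2 UMIs and 0 UMIs of Slc17a7, the vesicular transporter of cortical glutamate neurons. Of 185995 barcodes that had at least 500 UMIs and at most 5% mitochondrial UMIs, 1507 (0.810%) met the rule, and they are called Otof/Foxp2 nuclei below. The Otof, Foxp2 and Slc17a7 counts chose these nuclei and are given only as a description. The dopamine receptor genes, listed in the files as DRD1A (the receptor D1 gene) and DRD2, had no part in the choice.

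Nuclear RNA of the nucleus accumbens, a part of the ventral striatum, was sequenced with a droplet method in 40 prairie voles (Microtus ochrogaster), 1 library per animal. Per the labels each animal was housed for 16 days either with a partner of the other sex, the mate, or with one of its own sex, the peer. Among females there were 11 animals paired with a mate and 8 with a peer, and among males 11 and 10; no strain, allele, drug or age separates them in the labels. The labels do not name the partners, and cage mates may share more than unrelated animals do.

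Spiny projection neurons are the GABA-releasing output neurons of the striatum. Most of them belong to a direct pathway, marked by the D1 receptor and the peptide genes Tac1 and Pdyn, or to an indirect pathway, marked by the D2 receptor, the adenosine receptor Adora2a and the peptide gene Penk. Single-cell studies of the mouse striatum have described a smaller population that does not follow this division, called eccentric spiny neurons, in which genes such as Otof, Casz1, Pcdh8 and Tshz1 stand out.

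A library held between 2 and 93 Otof/Foxp2 nuclei, with a median of 35. In 35 animals there were at least 20, and these animals enter the comparisons of expression; the other 5 were female peer 3 (19 nuclei), male peer 7 (18), male peer 1 (11), male peer 9 (6) and male mate 2 (2). Male mate 2 stood apart as the shallowest library, with a median of 662 UMIs per barcode against 935 to 2201 in the other 39. The Otof/Foxp2 nuclei themselves had a median of 2466 UMIs, from 564 to 29030. Summed over an animal they gave between 57092 and 255783 UMIs. Of 164425 barcode sequences, 19903 (12.1%) occurred in at least 2 libraries, at most in 5; among 780 pairs of libraries the largest overlap was 85 sequences, and the highest share of the smaller library was 1.53%.

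Many of the nuclei lay close to the rule. Exactly 1 Otof UMI was counted in 893 of them and exactly 2 Foxp2 UMIs in 842, while 300 had at least 2 Otof and 3 Foxp2 UMIs. Just outside lay 1485 barcodes with Otof and exactly 1 Foxp2 UMI, in whose pooled counts Penk stood at 3852, DRD1A at 829.4 and Mdfic at 93.1 counts per 1000000 UMIs (CPM). Pooled over the Otof/Foxp2 nuclei the same genes stood at 4852, 820 and 111 CPM. A further 3419 barcodes had Otof and no Foxp2 UMI, 3706 had at least 2 Foxp2 UMIs and no Otof, and 95 met both counts but held Slc17a7. The 3706 barcodes with Foxp2 alone serve below as a neighbouring set, called the Foxp2-only set.

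The classical spiny neurons are represented by a pair of larger sets. The D1 set (20967 barcodes) had at least 2 Tac1 UMIs, at most 1 Penk UMI and no Adora2a. The D2 set (18527) had at least 2 Penk UMIs, Adora2a and at most 1 Tac1 UMI. Both lacked Otof and Slc17a7 and held at least 2 UMIs of Ppp1r1b, Pde10a and Rgs9 together. Because Penk, Tac1 and Adora2a define those sets, these 3 genes were compared instead with sets cut by receptor: at least 2 DRD1A UMIs and no DRD2 (D1 receptor set, 21940), or at least 2 DRD2 UMIs and no DRD1A (D2 receptor set, 5535). The receptor sets also lacked Otof and Slc17a7 but had no limit on Foxp2, so nuclei of the Foxp2-only set can be among them. Foxp2 ran from 76.8 to 288.5 CPM over animals in the D1 receptor set and from 43.6 to 121.6 CPM in the D1 set.

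The dopamine receptor of the Otof/Foxp2 nuclei was that of D1 neurons. DRD1A alone was seen in 1192 of the 1507 (79.1%), DRD2 alone in 12 (0.796%), both in 40 (2.65%) and neither in 263. The 12 nuclei with DRD2 alone were too few for a comparison of DRD2 with DRD1A nuclei within animals. Over the 35 animals the DRD1A level had a lowest value of 578, a median of 809 and a highest of 1144 CPM; in the D2 set of the same animals it was 32.3 ± 24.8 CPM (SD, n = 35), and no animal of one set overlapped the other. The log2 fold change was 4.82 (SE 0.09, adjusted p 1.7e-61 by edgeR's quasi-likelihood test with Benjamini-Hochberg adjustment), higher in 35 of 35 animals. Against the D1 set, at 941.5 ± 91.1 CPM (SD, n = 35), the level was slightly lower, with a log2 fold change of -0.16 (SE 0.04), lower in 30 of 35 animals and short of the 2-fold limit for a call.

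DRD2 was close to the floor of the assay in the Otof/Foxp2 nuclei. Its lowest level was 0, in 11 animals, its median 10.9 and its highest 50.6 CPM, all below the D2 set at 346.9 ± 58.8 CPM (SD, n = 35), with a log2 fold change of -4.45 (SE 0.12). To compare shares of barcodes at equal depth, each barcode was thinned to 1000 UMIs, which kept 1495 of 1507 Otof/Foxp2, 20138 of 20967 D1 set, 17833 of 18527 D2 set and 6038 of 20458 astrocyte-like barcodes. After thinning, a DRD1A UMI was found in 57.0% ± 8.75 (SD, n = 35) of the Otof/Foxp2 nuclei of an animal, from 40.0% to 82.4%, and in 2.59% ± 1.78 (SD, n = 35) of the D2 set. This difference of 54.4 percentage points held in 35 of 35 animals (paired permutation test, two-sided, p = 1e-05, the smallest that 100000 resamples can give). In astrocyte-like barcodes, which should lack the receptor, the pooled share was 8.63% of the 6038 kept by thinning. All 20458 astrocyte-like barcodes had a median of 822 UMIs before thinning, against 2466 in all Otof/Foxp2 nuclei. Without thinning 81.8% of the Otof/Foxp2 nuclei and 5.78% of the astrocyte-like barcodes had a DRD1A UMI.

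For DRD2 the thinned share was 0.616% ± 1.12 (SD, n = 35) in Otof/Foxp2 nuclei, with 26 animals at 0, and 1.26% ± 0.586 (SD, n = 35) in the D1 set. The share in astrocyte-like barcodes, which should lack DRD2, was 2.93% (2.33% with called doublets left out), so both lay below this background; the parts of free RNA and doublets in it were not tested. The difference of -0.644 percentage points (paired permutation test, two-sided, p = 0.00654, lower in 28 of 35 animals) turned to 0.617 without thinning and to 1.31 when thinned to 2000 UMIs. No difference between the Otof/Foxp2 nuclei and the D1 set in DRD2 is therefore read from these shares. Unthinned, the pooled shares were 3.45% in Otof/Foxp2 nuclei, 2.33% in the D1 set and 2.55% in astrocyte-like barcodes.

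Peptide genes of both pathways were high in these nuclei. Penk, the enkephalin precursor gene, had a lowest value of 1236, a median of 4674 and a highest of 9143 CPM over animals, and stood at 674 ± 417 CPM (SD, n = 35) in the D1 receptor set. All 35 animals were higher in their Otof/Foxp2 nuclei, with a log2 fold change of 2.93 (SE 0.06, adjusted p 8.6e-66 by edgeR's quasi-likelihood test with Benjamini-Hochberg adjustment). Against the D2 receptor set, at 6248 ± 1456 CPM (SD, n = 34), Penk was lower by less than 2-fold, at -0.47 (SE 0.08) on the log2 scale, and 24 of 34 animals were lower. Without subcluster 4, described below, these values were 2.55 and -0.79.

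Tac1, the gene of substance P, ran from 1401 over a median of 2979 to 5537 CPM. The D1 receptor set stood at 1860 ± 398 CPM (SD, n = 35) and the D2 receptor set at 238 ± 176 CPM (SD, n = 34). Tac1 was thus higher than in the D2 receptor set in 34 of 34 animals (log2 fold change 3.85, SE 0.08), and higher than in the D1 receptor set in 35 of 35 animals by less than 2-fold (0.74, SE 0.04).

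At 1000 UMIs per barcode, 52.9% of the Otof/Foxp2 nuclei held both a Penk and a Tac1 UMI, against 3.56% of astrocyte-like barcodes. By animal the lowest share was 19.2%, the median 55.2% and the highest 82.4%; without thinning the pooled shares were 69.6% and 2.94%. All astrocyte-like barcodes, including those under 1000 UMIs that the thinned share leaves out, had a median of 822 UMIs. Their levels of Penk and Tac1, 584 and 252 CPM, give the background of these abundant transcripts.

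Other genes of D2 neurons stood above D1 neurons in part, and most stood far below D2 neurons. Of the D2 spiny neuron list, 3 of 4 tested genes were called higher against the D1 receptor set (Penk, Sp9 and Adora2a) and 0 lower, with a median log2 fold change of 1.99, and against the D2 receptor set 0 of 6 were called higher and 4 lower, with a median of -2.55. Over all genes, 1.33% of 7495 were called higher and 1.69% lower against the D1 receptor set, and 1.5% of 5595 higher and 1.66% lower against the D2 receptor set. Adora2a ran from 29.1 over 88.5 to 205.5 CPM, above the D1 receptor set (25.5 ± 8.34 CPM, SD, n = 35; log2 fold change 1.84, SE 0.11) and below the D2 receptor set (957 ± 122 CPM, SD, n = 34; -3.36, SE 0.07), and in neither comparison did a single animal go the other way. As a background, astrocyte-like barcodes held 1796 Adora2a UMIs among 26937753 UMIs, against 407 among 4532768 in Otof/Foxp2 nuclei. The part of this background in the Adora2a level of the Otof/Foxp2 nuclei was not tested. Pooled counts gave 54.0 Penk UMIs per Adora2a UMI in Otof/Foxp2 nuclei, 26.4 in the Foxp2-only set, 25.3 in the D1 receptor set and 6.65 in the D2 receptor set. The ratio was 8.98 in astrocyte-like and 8.56 in oligodendrocyte-like barcodes. Gpr6 and Gpr52, orphan receptors of D2 neurons, were lower than in the D2 set: Gpr6 stood at 39.3 ± 44.1 against 1052 ± 202 CPM (SD, n = 35; log2 fold change -4.51, SE 0.11) and Gpr52 at 7.95 ± 12.0 against 147 ± 26.8 CPM (SD, n = 35; -3.98, SE 0.16). The transcription factor gene Sp9 differed less from D2 neurons. It stood at 85.4 ± 30.6 CPM (SD, n = 35) in Otof/Foxp2 nuclei, 10.6 ± 4.01 in the D1 set (log2 fold change 3.11, SE 0.13, 35 of 35 animals higher) and 87.6 ± 14.7 in the D2 set (0.04, SE 0.09, 14 higher and 21 lower).

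**Figure D1:**
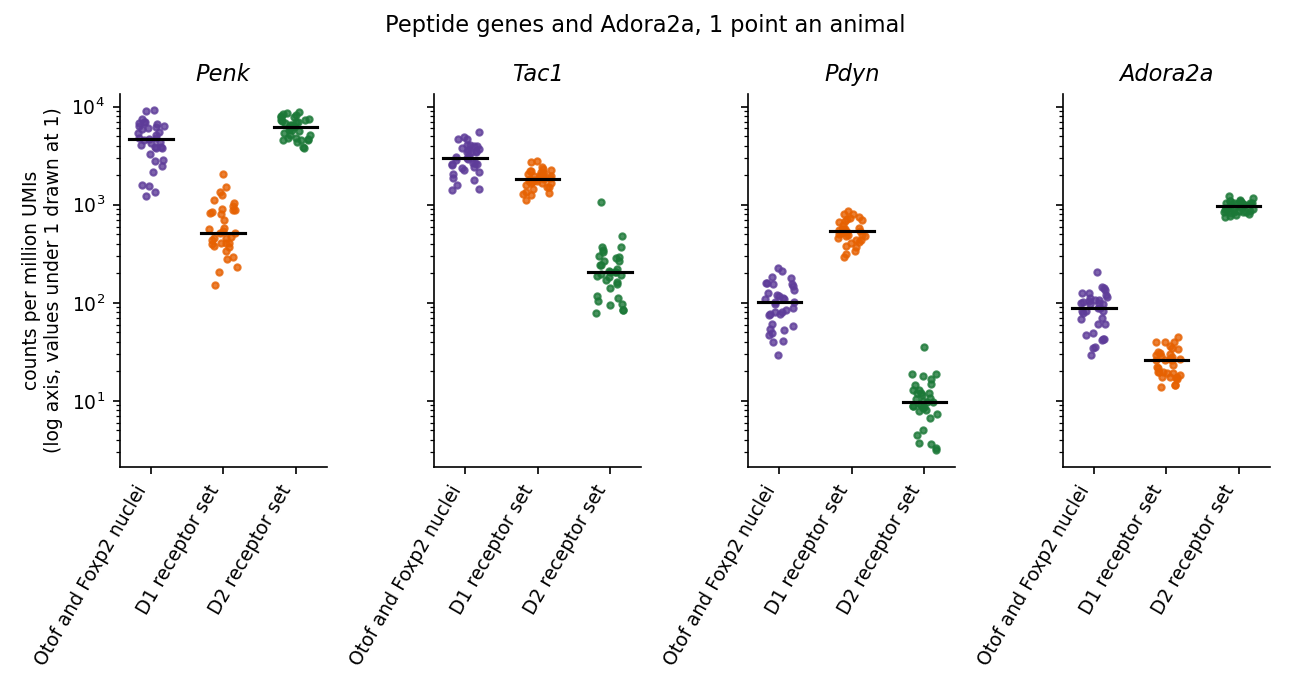
Levels of Penk, Tac1, Pdyn and Adora2a (counts per 1000000 UMIs, log axis, values under 1 drawn at 1) in the Otof/Foxp2 nuclei and in the sets cut by DRD1A or DRD2 counts; each point is 1 animal and the bar is the median. Penk and Tac1 are both high in the Otof/Foxp2 nuclei, Pdyn lies between the 2 sets, and Adora2a lies well below the D2 receptor set.

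Pdyn did not accompany Tac1. Pdyn, the dynorphin precursor gene, ran from 29.5 to 226.1 CPM with a mean of 106 ± 50.5 (SD, n = 35). In the D1 set it was 636 ± 153 CPM, higher in 35 of 35 animals, and in the D2 set 13.4 ± 5.12 CPM, lower in 35 of 35 animals; the log2 fold changes of the Otof/Foxp2 nuclei were -2.48 (SE 0.08) and 3.01 (SE 0.13). Of the opioid peptide and receptor genes, 4 were tested against each set. Against the D1 set 0 were called higher and 1 lower (Pdyn), and against the D2 set 1 was called higher (Pdyn) and 1 lower: Oprd1, the delta receptor gene, at 6.41 ± 9.31 against 78.4 ± 13.2 CPM (SD, n = 35). Oprm1, the mu receptor gene, was not called against either set, with log2 fold changes of 0.30 and -0.03. The muscarinic receptor gene Chrm4 differed from the D1 set by 0.09 on the log2 scale (SE 0.06; 166.8 ± 45.0 and 161 ± 23.3 CPM, SD, n = 35) and was 4.64 on the log2 scale (SE 0.12) above the D2 set.

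The marker genes given for this population were higher than in both classical sets in at least 34 of 35 animals. They had been picked with results of these data known, so that their values are a description. Mdfic, a regulator of transcription, had a median of 109 CPM and ran from 0 in 1 animal to 245, where the D1 set stood at 6.90 ± 4.04 and the D2 set at 2.78 ± 2.59 CPM. Tshz1, a zinc finger transcription factor gene, ran from 69.7 over 164 to 263 CPM, against 21.0 ± 6.88 in the D1 set and 17.9 ± 5.33 in the D2 set, with no animal of either set reaching the lowest. Erbb4, the neuregulin receptor gene, ran from 285 over 421 to 583 CPM, against 109 ± 25.0 and 12.2 ± 10.2 CPM. Tac2, the neurokinin B gene, was the most variable of the 4 and ran from 43.7 over 458 to 1284 CPM, with 95.8 ± 50.5 CPM in the D1 set and 26.7 ± 16.0 in the D2 set; its range overlapped those of both sets between animals, although all 35 animals were higher in their Otof/Foxp2 nuclei.

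**Figure D2:**
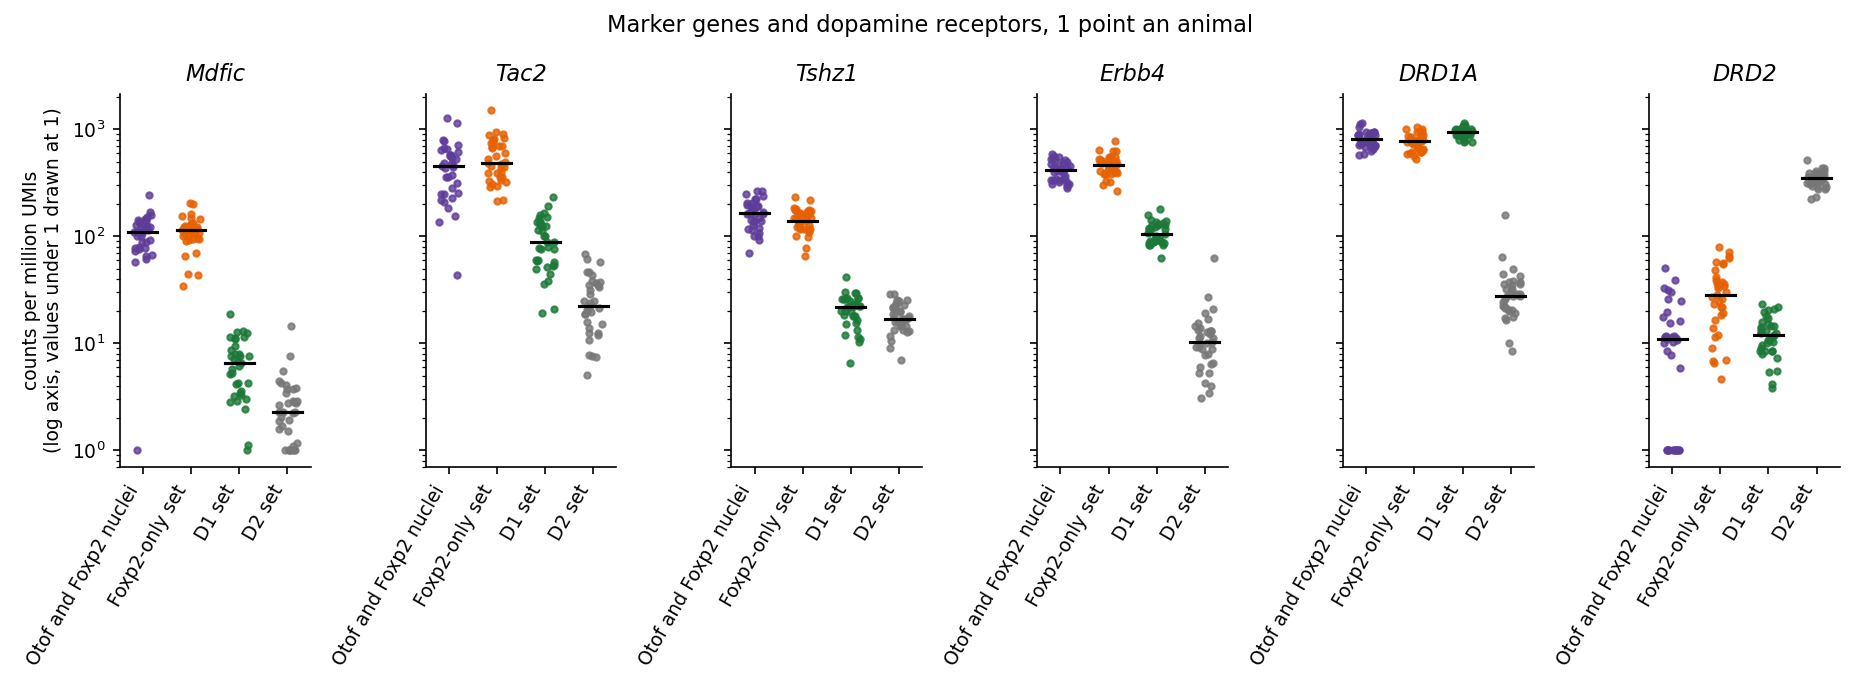
Levels of Mdfic, Tac2, Tshz1, Erbb4, DRD1A and DRD2 (counts per 1000000 UMIs, log axis, values under 1 drawn at 1) in Otof/Foxp2 nuclei, the Foxp2-only set, the D1 set and the D2 set; each point is 1 animal and the bar is the median. The first 4 genes have higher medians in the Otof/Foxp2 nuclei and the Foxp2-only set than in both classical sets, with overlap in Tac2 and, through 1 animal at 0, in Mdfic, while DRD1A lies near the level of the D1 set.

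The label of eccentric spiny neurons was checked against a list of mouse markers, which shares Tshz1 with the given markers. Of its 6 genes, 5 were used, since Casz1 is not listed in the files under that name, and 3 passed the filter on low counts. Pcdh8 and Tshz1 were called higher against both sets and Col11a1 against the D2 set (86.6 ± 34.6 against 40.2 ± 14.6 CPM, SD, n = 35) but not the D1 set (log2 fold change 0.73, SE 0.10). Cacng5, which did not pass the filter, was higher in 34 of 35 animals against each set. Adarb2, which did not pass the filter, stood at 46.6 ± 22.6 CPM (SD, n = 35), and at 4.58 ± 2.42 in the D1 set (SD, n = 40). The genes of spiny neurons were present: Gad1 and Gad2, the GABA synthesis enzymes, stood at 540 ± 104 and 1157 ± 224 CPM (SD, n = 35), and Ppp1r1b, Pde10a and Rgs9 differed from the D1 receptor set by -0.00, 0.29 and 0.02 on the log2 scale. Ppp1r1b was lower than in that set in 25 of 35 animals and higher in 10. Without subcluster 4, described below, the values of the same 3 genes were -0.20, 0.32 and 0.14. Slc17a6, the transporter of subcortical glutamate neurons, had a UMI in 4 of 1507 nuclei (0.265%) without thinning, against 0.753% of astrocyte-like barcodes, and in 0 of 1495 thinned to 1000 UMIs, which allows up to 0.201% of nuclei with a UMI at that depth. The genes Foxp2, Tshz1 and Erbb4 also mark intercalated neurons of the amygdala. Of that list, 2 of 4 tested genes were called higher against each set (Tshz1 and Erbb4), so the markers held in common do not separate these nuclei from intercalated neurons. Pax6, also on that list, was not among the tested genes and lay near the floor. It had 9 UMIs in subcluster 5, 4 in subcluster 4, 3 in subcluster 2 and 0 in the other subclusters, all described below.

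Markers of glia had medians near those of the reference sets, those of interneurons, islands of Calleja and glutamate neurons stood near or below them, and some animals were high. The summed level of 5 astrocyte genes had a median of 452 CPM over animals (163 to 779), against 348 in the D1 set and 386 in the D2 set, and the 4 oligodendrocyte genes gave 197 CPM (65.0 to 1576), against 219 and 236. The 9 interneuron genes gave a median of 48.6 CPM (0 to 977), against 144 and 47.8 in the D1 and D2 sets. The 4 islands of Calleja genes gave 34.3 CPM (0 to 148), against 43.6 and 28.9, and the 6 glutamate neuron genes 45.3 (8.48 to 117), against 71.7 and 94.0. The summed level of 4 genes of striatal patches was higher, at 655 CPM (402 to 879) against 291 and 284. Of the 3 tested, Sema5b and Lypd1 were called higher against each set, but Lypd1 fell short of 2-fold against the D1 receptor set (log2 fold change 0.83, SE 0.07). Oprm1, the remaining tested gene, was not called against either set. It was higher in 23 of 35 animals against the D1 set and in 18 of 35 against the D2 set. The 6 intercalated neuron genes other than Foxp2, led by Penk, which defines both sets, gave 6481 CPM against 914 and 8196, and the 4 immature neuron genes 44.1 against 46.3 and 25.8. None of the tested astrocyte (3) and oligodendrocyte (2) genes was called against either set. Of the 1507 nuclei 41 (2.72%) were called doublets, and 36 and 20 also met the astrocyte-like and oligodendrocyte-like rules.

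Across all genes, few passed the limit for a call against either set. A gene was called with an adjusted p under 0.05 and at least a 2-fold difference. Against the D1 set, 95 of 6392 genes were called higher in Otof/Foxp2 nuclei (1.49%) and 115 lower (1.80%). Against the D2 set, 115 of 6028 were called higher (1.91%) and 140 lower (2.32%). The median log2 fold change of all tested genes was 0.01 against the D1 set and 0.00 against the D2 set.

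The genes called higher with the largest folds included the same few in both comparisons. Pcdh8, a protocadherin gene, ran from 77.6 over 179 to 443 CPM, against 15.1 ± 7.99 CPM in the D1 set (log2 fold change 3.68, SE 0.10) and 7.51 ± 4.06 in the D2 set (4.66, SE 0.12), with no overlap between the sets. Alk, a receptor tyrosine kinase gene, stood at 83.4 ± 26.9 CPM (2.91 and 4.53), and Ppm1e, a phosphatase gene, at 129 ± 34.1 CPM (3.16 and 4.47). Shisa8, which encodes an auxiliary protein of AMPA receptors, stood at 81.2 ± 40.6 CPM (3.19 and 4.14). Against the D1 set the 10 largest also held Nptx1, the neuronal pentraxin gene (269 ± 79.8 CPM, 3.20), Pcsk1, a prohormone convertase gene that processes neuropeptide precursors (363 ± 97.0 against 49.5 ± 18.9 CPM, 2.94), and Elavl4, a neuronal RNA-binding protein gene (111 ± 34.6 CPM, 2.92). The size of these differences changed with the reference. Against the D1 receptor set the 10 genes ranged from 1.95 (Shisa8) to 2.33 (Mdfic) on the log2 scale, with Pcdh8 at 2.02, and Erbb4 and Tac2 stood at 1.46 and 1.25; all kept their calls. Against the D2 receptor set Pcdh8 stood at 3.94, Ppm1e at 3.71, Slc35d3 at 3.60 and Alk at 2.84, while Mdfic and Erbb4 stood at 6.25 and 5.97.

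Among the genes called lower, several mark subsets of classical spiny neurons. Reln, which encodes the extracellular protein reelin, ran from 0 over 47.9 to 265 CPM in Otof/Foxp2 nuclei and from 320 to 1187 CPM in the D1 set, without overlap (log2 fold change -3.37, SE 0.11); against the D2 set, at 107 ± 56.1 CPM, it was not called. Col24a1, a collagen gene, was at 10.3 ± 14.1 CPM against 186 ± 121 in the D1 set and 217 ± 141 in the D2 set (-4.03 and -4.24). Cartpt, a peptide precursor gene, was at 18.2 ± 25.2 against 143 ± 49.3 and 224 ± 75.9 CPM (-3.01 and -3.64). Plxnd1, a semaphorin receptor gene, was at 5.90 ± 7.99 against 83.1 ± 23.5 and 86.5 ± 23.9 CPM (-3.55 and -3.60).

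Abi3bp, an extracellular matrix gene, stood at -4.09 and -4.33 on the log2 scale. The remaining genes with the largest folds against the D1 set were Hcrtr2 (the orexin receptor 2 gene), Mlip, Vav3, Cachd1 and Adamts16, from -3.70 to -2.80, and against the D2 set Fig4, Ak9 and B3gat1, from -4.00 to -3.53. Those of the genes that lay at 0 in many animals have folds that depend on the prior count of the fit. Abi3bp, Hcrtr2, Plxnd1, Cachd1 and Gpr52 had a median of 0 CPM in Otof/Foxp2 nuclei.

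**Figure D3:**
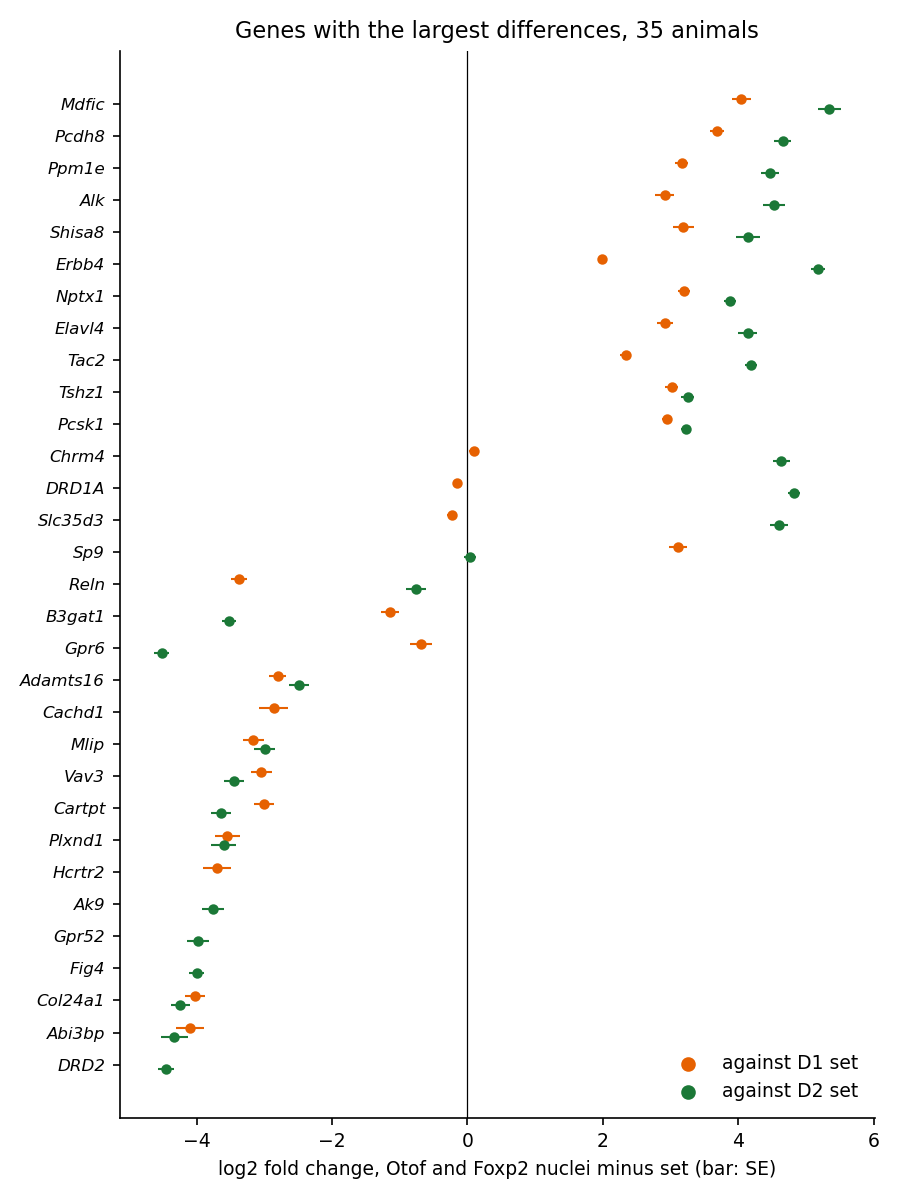
Log2 fold changes of Otof/Foxp2 nuclei against the D1 set and the D2 set (x axis) for the genes with the largest called differences in either comparison, with standard errors as bars, over 35 animals. Pcdh8, Alk, Ppm1e and Shisa8 are far above 0 in both comparisons and Col24a1, Abi3bp, Plxnd1 and Cartpt far below, whereas DRD1A, Gpr6 and Sp9 differ between the 2 references.

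The gene lists from here on were chosen with earlier results of these data known. For comparison with their counts, 1.49% of all genes were called higher and 1.80% lower against the D1 set. Against the D2 set the shares were 1.91% and 2.32%. Striatal transcription factor genes changed in both directions, and 14 were tested. Against the D1 set 2 were called higher (Sp9 and Tshz1) and 3 lower (Foxp1, Zfhx3 and Zfhx4), with a median of 0.39; against the D2 set 3 were higher (Tshz1, Pbx3 and Nr4a1) and 2 lower, with a median of 0.05. Against the D2 receptor set 1 of 12 was called higher (Tshz1) and 2 lower, with a median of -0.06; Nr4a1 fell short of 2-fold there and Pbx3 was not tested. Foxp1, the forkhead factor of spiny neurons, ran from 15.5 to 155.5 CPM against 283 ± 33.7 in the D1 set and 308.5 ± 35.0 in the D2 set, lower in 35 of 35 animals (log2 fold changes -2.04 and -2.17, SE 0.09). Foxp1 was the only called gene among 8 tested spiny neuron genes, and Meis2 of the same list was 0.73 and 0.74 higher (SE 0.03 and 0.04), short of 2-fold. Of 12 genes of the cyclic AMP cascade, 0 were called against the D1 set (median -0.10) and 1 against the D2 set (Rasgrp2, lower; median -0.12).

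Subunits of receptors for GABA and glutamate differed gene by gene. Of the genes of GABA signalling, 2 of 18 were called higher against the D1 set (Gabra3 and Gabrq) and 2 lower (Gabrb2 among them), with a median of 0.10, and against the D2 set 1 of 17 was higher (Gabra3) and 2 lower, with a median of 0.17. Gabra3 was at 101 ± 34.6 CPM against 38.6 ± 8.66 and 31.2 ± 8.84 CPM, higher in 34 and 35 animals. Grin3a, an NMDA receptor subunit gene, was at 192 ± 50.2 CPM against 28.0 ± 10.4 and 13.1 ± 7.61 CPM (log2 fold changes 2.79 and 3.92). It was the only one of 16 glutamate receptor genes called higher against the D1 set, and against the D2 set 2 of 16 were higher (Grin3a and Grin2a); against the D2 receptor set Grin2a fell short of 2-fold (0.97, SE 0.06). Grm3, a metabotropic receptor gene, was lower against both (-2.33 and -2.53, SE 0.10), and 2 genes of the list were called lower in each comparison.

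Of 19 axon guidance genes, 4 were called higher against the D1 set (Plxna4, Sema3e, Sema5a and Sema5b) and 5 lower (Dcc, Ntn1, Plxnc1, Plxnd1 and Slit1), and against the D2 set 3 and 6; the medians were -0.07 and -0.29. Sema5b, a transmembrane semaphorin gene, was at 213 ± 65.1 CPM against 33.3 ± 10.4 and 14.8 ± 6.62 CPM (log2 fold changes 2.74 and 3.96), and its relative Sema5a at 81.0 ± 31.0 against 12.8 ± 3.67 and 4.96 ± 2.76 CPM (2.69 and 3.99). Dcc and Ntn1, a receptor and its ligand, were lower against both sets, Dcc by 1.33 and 1.45 and Ntn1 by 1.86 and 1.70 on the log2 scale. Of 12 cadherin genes, 3 were called higher against each set (Pcdh7, Pcdh8 and Cdh18) and 1 lower against the D1 set and 2 against the D2 set (Cdh7 in both). Against the D1 receptor set Plxna4 (0.77, SE 0.10) and Cdh18 (0.86, SE 0.08) fell short of 2-fold.

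Of 14 voltage-gated potassium channel genes 1 was called lower against each set (Kcna4, 251 CPM against 651 and 714). Of 18 calcium and sodium channel genes Cacna2d2 was called higher and Cacna1h lower against the D1 set, and Cacna1h lower against the D2 set. Of 10 immediate early genes tested against the D1 set 0 were called, and of 7 against the D2 set 1 was higher (Nr4a1, 127 ± 71.2 against 63.0 ± 28.9 CPM). Their median log2 fold changes were 0.46 and 0.74, against 0.007 and 0.004 over all genes. Against the D1 receptor set 0 of 10 were called, with a median of 0.61. Against the D2 receptor set 0 of 8 were called, with a median of 0.67 and Nr4a1 at 0.89 (SE 0.10) on the log2 scale. Of other peptide and receptor genes, 1 of 6 was called higher (Crhr2) and 2 lower (Cartpt and Hcrtr2) against the D1 set, with a median of -0.45, and 1 of 4 higher (Crhr2) and 2 lower (Cartpt and Nts) against the D2 set, with a median of -1.78. Crhr2, which binds urocortins, ran from 39.0 to 231.1 CPM and was higher than in the D1 set in 35 of 35 animals (20.4 ± 9.75 CPM, log2 fold change 2.61, SE 0.13) and than in the D2 set in 34 of 35 (45.1 ± 17.9 CPM, 1.49, SE 0.12).

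Few genes were called against the Foxp2-only set. Of 4698 genes, 2 were called higher in the Otof/Foxp2 nuclei (0.0426%) and 5 lower (0.106%). The higher genes were Tac1, at 3094 ± 1019 against 1508 ± 515 CPM (log2 fold change 1.06, SE 0.05, 35 of 35 animals), and Sema7a, a membrane-bound semaphorin gene (83.8 ± 37.5 against 42.0 ± 20.3 CPM, 1.03, SE 0.12). The lower genes were Col14a1, a collagen gene (26.6 ± 28.5 against 99.8 ± 56.5 CPM, -1.87, SE 0.17), Tpbg (-1.40), Reln (-1.32), Gpr6 (-1.12) and Fxyd6 (-1.11). Penk, at 4746 ± 2057 against 2471 ± 1014 CPM, was 0.95 (SE 0.06) higher, just under 2-fold, in 32 of 35 animals. The markers Mdfic, Tac2, Tshz1 and Erbb4 differed by -0.03, -0.26, 0.23 and -0.11, all under 2-fold. Of the mouse list of eccentric spiny neurons 4 genes were tested and 0 called, with a median of 0.09. Pcdh8 of that list was lower than in the Foxp2-only set in 26 of 35 animals and higher in 9. Some nuclei of the Foxp2-only set may be of the same kind with no Otof UMI counted.

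Among themselves the Otof/Foxp2 nuclei fell into 7 subclusters, described here by number and leading genes and not compared between groups, since the same counts formed them. Subcluster 1 (497 nuclei) was led by Ptprv, Crhr2 (235 CPM) and Col11a1, with Penk at 1793 CPM. Subcluster 2 (256 nuclei) was led by Nrp2, Calcrl and Cux2, with Penk at 9010 CPM. Subcluster 3 (248 nuclei) was led by Lhfp, Tac1 (4760 CPM) and Nrgn and had 3493.5 UMIs in the median nucleus, against 2020 in subcluster 1 and 2274 in subcluster 2. The pooled Penk level of subcluster 2 lay far above those of the other two, while DRD1A stood at 1004, 1038 and 801 CPM.

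The other 4 subclusters differed in their leading genes. Subcluster 4 (235 nuclei) was led by genes of glia, Ptgds and Apoe among them, and held 28 of the 41 called doublets. Npy and Sst were also among its leading genes by fold, but few of its nuclei carried them: 4.68% had an Npy UMI and 7.66% an Sst UMI, against 3.62% and 5.11% of the other nuclei. Subcluster 5 (141 nuclei) was led by Col14a1 (315 CPM), with Gabrq at 297 CPM (a UMI in 32.6% and 39.0% of its nuclei), and had the lowest levels of DRD1A (266 CPM), Tac1 (161), Ppp1r1b (220) and Pde10a (59) of the 7. Subcluster 6 (80 nuclei) was led by the immediate early genes Fosb, Npas4, Fos and Arc, and had DRD1A at 980, Tac1 at 4972 and Penk at 4733 CPM. Subcluster 7 (50 nuclei) was led by Col24a1, Gpr6 and Adamts16, genes of the classical sets, and then C1ql2. It had the lowest Mdfic (14 CPM), Tac2 (121) and Tshz1 (51) of the 7. Its DRD2 (74.3 CPM, a UMI in 18% of its nuclei) and Adora2a (223 CPM, 30%) were the highest of the 7, with DRD1A at 627 CPM (86%). The share of subcluster 1 in an animal's Otof/Foxp2 nuclei ran from 9.09% to 56.9%, and that of subcluster 2 from 0% to 51.2%.

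**Figure D4:**
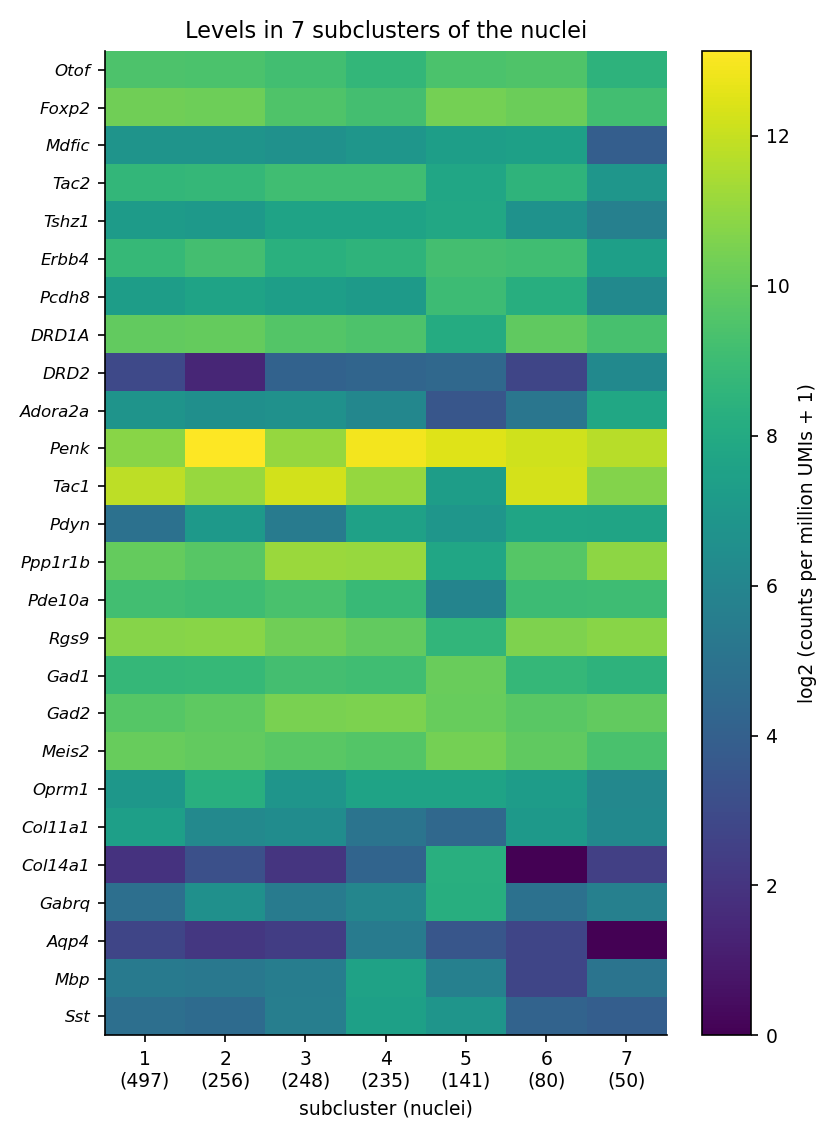
Pooled levels, as log2 (counts per 1000000 UMIs + 1), of marker, receptor and peptide genes (y axis) in the 7 subclusters of the Otof/Foxp2 nuclei (x axis, number of nuclei in brackets). Subcluster 5 is low in DRD1A, Tac1 and Pde10a and high in Col14a1, and subcluster 7 is low in Mdfic.

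Whether the share of these nuclei went with the partner or the sex of the animal was compared over all 40 animals. In female mates the share of kept barcodes had a lowest value of 0.456%, a median of 0.689% and a highest of 1.91%, and in female peers 0.494%, 0.921% and 1.75%. In male mates it was 0.0327%, 0.769% and 1.92%, and in male peers 0.160%, 0.658% and 1.82%. The 4 groups overlapped over almost their whole range; the lowest male mate value was that of the shallow library, and the next was 0.514%. The mean share of mates minus that of peers was -0.143 percentage points in females and 0.0582 in males, and -0.0423 averaged over the sexes (permutation test, two-sided, p = 0.773; -0.00101 without male mate 2, the shallow library). Females minus males came to 0.0862 averaged over the pairing types (permutation p = 0.565), and the female minus the male pairing difference to -0.201 (permutation p = 0.497), with an adjusted p of 0.773 over the 3 tests for each. A nucleus is counted only if its Otof and Foxp2 UMIs were captured, so fewer such nuclei and less RNA per nucleus cannot be told apart.

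**Figure D5:**
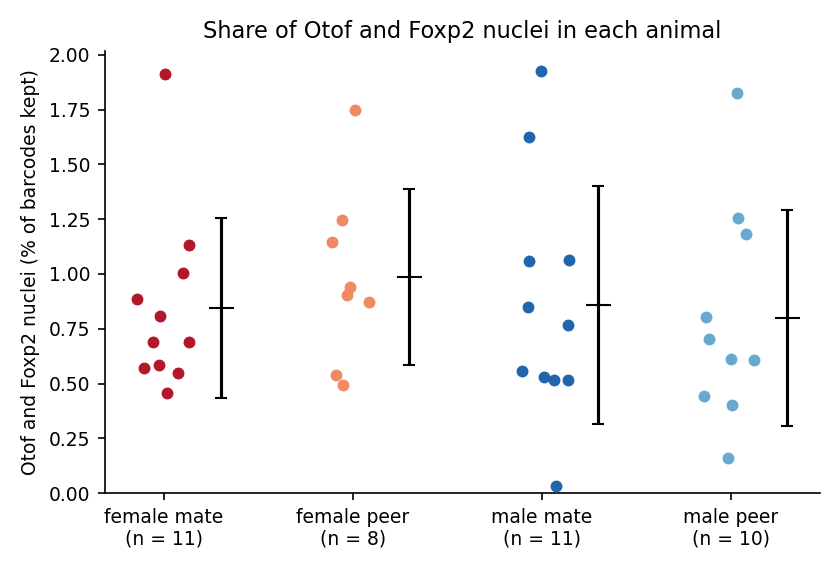
Share of Otof/Foxp2 nuclei among the kept barcodes of each animal (y axis, percent) in the 4 groups, 1 point per animal, with the mean and SD beside the points. The groups overlap over almost their whole range, and the highest animal of each lies between 1.75% and 1.92%.

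The share varied with properties of the library. Over 40 animals it correlated with the median UMIs per barcode (Pearson's r = 0.367, permutation p = 0.0197, Spearman's rho = 0.411, permutation p = 0.00970; 0.519 without male mate 2 and female peer 1). With the share of D1 and D2 set barcodes it was 0.281 (permutation p = 0.0780, rho = 0.399, permutation p = 0.0122; 0.243 without male mate 2 and female mate 8). Adjusted over these 2 relations the p-values of r were 0.0394 and 0.0780. The part of depth in the differences between animals was not tested, and the labels name no batch.

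No gene of the Otof/Foxp2 nuclei was called between mates and peers, between the sexes or for their interaction, in 35 animals (among females 11 with a mate and 7 with a peer, among males 10 and 7). Of 4039 genes tested, edgeR's quasi-likelihood test called 0 in each comparison (0% each), and DESeq2 also called 0. An unadjusted p under 0.05 was found for 110 genes in the pairing comparison, 144 in the sex comparison and 99 in the interaction (88, 110 and 78 by DESeq2). Each count is less than a share of 0.05 of the 4039 genes, the share expected where no gene differs. For pairing the lowest p belonged to Ahsa1, an activator of the chaperone Hsp90 (89.1 ± 35.9 CPM in mates, n = 21, 62.8 ± 24.0 in peers, n = 14; log2 fold change 0.67, SE 0.19, adjusted p 0.999 by edgeR), then Dhx40 (0.60, SE 0.18) and Celf3 (0.39, SE 0.12). Without the filter on low counts 3 genes were called, all higher in mates and named here after their values were seen: the interneuron peptide genes Sst (log2 fold change 1.73, SE 0.31, adjusted p 0.000300 by edgeR) and Npy (1.96, SE 0.34, 0.000300), and a gene without a symbol with 37 UMIs in 3 animals (3.89).

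The Sst signal, 343 UMIs in all, stood highest in female mate 4 (516 CPM), female mate 6 (295), female mate 1 (225) and male mate 9 (208), while the medians were 43.7 CPM in females with a mate, 17.9 in females with a peer, 19.7 in males with a mate and 10.9 in males with a peer. Npy, with 260 UMIs, stood at 414 CPM in female mate 4, 324 in female mate 6 and 150 in male mate 9, with group medians of 12.2, 17.0, 15.5 and 15.3 CPM in the same order. All groups overlapped in both genes, and the named mates held most of the UMIs. With subcluster 4 left out (it has both among its leading genes and holds 28 of the 41 barcodes marked as doublets), the group medians were 34.2, 20.6, 22.2 and 13.4 CPM for Sst and 14.6, 10.3, 3.16 and 19.8 CPM for Npy (n = 9, 7, 10 and 6). The highest animal was then female peer 5 for Sst (198 CPM) and male mate 3 for Npy (68.8 CPM). That subcluster's part in the 2 calls was not tested.

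Of the genes described for the nuclei as a whole, none of those tested between the groups was called. Many were not tested there. The fit held 1 of 5 listed dopamine receptor genes (DRD1A), 3 of 7 D2 spiny neuron genes and 2 of 22 other peptide and receptor genes. Penk stood at 4676 ± 2161 CPM (SD, n = 11) in female mates, 3656 ± 2002 (n = 7) in female peers, 5885 ± 1734 (n = 10) in male mates and 4321 ± 1976 (n = 7) in male peers. The mate minus peer difference was 0.40 on the log2 scale (SE 0.19), with an unadjusted p of 0.0390 and an adjusted p of 0.999 by edgeR's quasi-likelihood test. Tac1 differed by 0.07 (SE 0.15), Pdyn by -0.20 (SE 0.21), DRD1A by -0.09 (SE 0.09), Tac2 by -0.22 (SE 0.23), Mdfic by 0.16 (SE 0.18), Tshz1 by 0.24 (SE 0.14), Erbb4 by 0.06 (SE 0.11) and Crhr2 by 0.11 (SE 0.20). Among these, Penk alone had an unadjusted p under 0.05. Of 10 tested candidate genes of pair bonding 0 were called, and their median was 0.06.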

How the data were processed

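The deposited files hold raw UMI counts per gene and barcode, as whole numbers without normalization, per the file headers; Cell Ranger 3.1.0 is named in the submitters' processing notes. The genome build, annotation and rule for choosing barcodes are not given in the sources used here. All files list the same 19130 genes, 3807 of them without a symbol. Gene order was taken from the RefSeq annotation of MicOch1.0.

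The rule for the nuclei, their markers and all gene lists were chosen with earlier results of these data known. Counts were summed per animal and set, and animals with at least 20 nuclei in each set were used. The quasi-likelihood test of edgeR 4.0.16 (R 4.3.3), with TMM factors and edgeR's expression filter, had 1 mean per group, or the animal as a block between sets, with Benjamini-Hochberg adjustment over all genes tested; genes of a set's rule were not tested. The alternatives were DESeq2 1.42.0, other gates, filters, thinning and sets, nuclei called doublets left out, and single libraries or subclusters left out. Shares were compared by permutation over animals (100000 resamples, 10000 for correlations). CPM are counts per 1000000 UMIs of the sum. Intervals and limits for counts of 0 (3 counts) cover counting error only. The p-values take the animal as the unit. Between sets they weigh a difference within animals against its spread over these animals. Between groups they treat all animals as independent, also any that lived together.

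Astrocyte-like barcodes had at least 2 UMIs of Aqp4 and Gja1, and oligodendrocyte-like barcodes at least 2 of Mog and Mag. Doublets were scored against simulated sums of 2 barcodes and the highest scores called, at an assumed 0.8% per 1000 barcodes, which marked 7608 barcodes (4.09%); they were kept in the main values. Subclusters used 1500 variable genes, 15 principal components, 15 neighbours and a resolution of 0.6. Named are the 10 called genes with the largest fold in each direction (mean of at least 20 CPM in the higher set, same direction in at least 90% of animals), the 3 genes with the lowest p where none was called, the markers, and examples from the lists. The tests were checked on simulated data. Some genes are not reported here.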

Additional observations from a re-analysis of the deposited data

Results flagged for a closer look

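Within a group, 20 of 143 sets of animals checked (14.0%) had a highest or lowest level set off from the rest by a large gap. The check was not made in groups as large as the female mates (11 animals), so no gene was checked in them. For the share, neither mate group (11 animals each) was checked. The limit is meant to let through about 1 in 20 groups by chance, a rate that was not checked for groups with most animals at or near 0. Most rest on few counts. In male mate 7, with 29 nuclei and 59712 UMIs, Col24a1 (50.2 CPM, 3 UMIs), Hcrtr2 (33.5 CPM, 2 UMIs), Cartpt (134 CPM, 8 UMIs) and Fig4 (100.5 CPM, 6 UMIs) were all set off upwards. Likewise set off from 1 to 9 UMIs were Plxnd1 in female peer 6 (6.84 CPM, 1 UMI), Gpr52 in female peer 4 (8.48 CPM, 1 UMI) and male mate 1 (23.9 CPM, 3 UMIs), Cachd1 in male mate 5 (46.8 CPM) and male peer 5 (20.9 CPM), Vav3 in female peer 5 (56.9 CPM) and male peer 4 (38.1 CPM), Adamts16 in female peer 7 (35.9 CPM), DRD2 in male mate 9 (31.7 CPM, 7 UMIs) and, as the lowest of its group, Ppm1e in male peer 2 (65.1 CPM against 115 in the next animal).

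Larger counts stood behind the others. Tac2 was at 1157 CPM in male mate 11 (107 UMIs, next animal 611) and at 1284 CPM in male peer 8 (97 UMIs, next animal 666), the highest values of the 2 male groups. Male mate 11 was also set off for Pcsk1 (638 CPM, 59 UMIs, next animal 421) and male peer 8 for Slc35d3 (278 CPM, 21 UMIs). Gpr6 was at 191 CPM in female peer 7 (32 UMIs), where Adamts16 was also high, and Ahsa1, the gene with the lowest p for pairing, was at 186 CPM in male mate 9 (41 UMIs).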

How the results depend on the processing

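Of the 432 values of single genes recomputed under the alternatives, 421 kept their direction and side of the threshold, and 9 missed the threshold and 2 reversed, all 11 under the stricter gate (at least 2 Otof and 3 Foxp2 UMIs), which left 2 animals: DRD1A against the D1 set went to 0.043 and Tshz1 against the Foxp2-only set to -0.10. Genes not tested under an alternative have no value there. Thinning left 23 values of the comparisons between sets, where leaving out subcluster 5 left 54. Genes not called in the main fit, such as all those named between groups, count as kept when they stay uncalled. The alternative of at least 50 nuclei gave 9 of the values and held male mate 4 as its only male mate. With the reference sets cut by receptor these single genes kept their calls, but many folds were smaller against the D1 receptor set (Pcdh8 2.02, Mdfic 2.33). That set can hold nuclei of the Foxp2-only set, whose part in the smaller folds was not tested. Of the 39 genes of the lists called against the D1 set, 34 were also called against the D1 receptor set and 5 fell short of 2-fold (Cdh18, Lypd1 and Plxna4 among them). Of 47 called against the D2 set, 38 were also called against the D2 receptor set, 5 fell short of 2-fold (Grin2a and Nr4a1 among them) and 4 were not tested (DRD1A, DRD2, Pbx3 and Syt2).

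The mate minus peer difference in share reversed to 0.125 percentage points under a looser gate (at least 1 Foxp2 UMI). The DRD2 share difference reversed to 0.617 without thinning, 1.31 thinned to 2000 UMIs and 1.29 under the stricter gate; the DRD1A share difference under that gate was 65.1 percentage points in 2 animals, which cannot reach the threshold.

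Calls against the D1 set numbered 1046 without the filter, 80 thinned and 119 under the stricter gate, against the D2 set 1196 without the filter and 103 thinned, and against the Foxp2-only set 92 without the filter, 1 thinned, 1 under the stricter gate, 11 without subcluster 4 and 13 without subcluster 5 (both chosen after seeing the data). Thinning left fewer genes to test; the other causes were not tested. For pairing 3 genes were called without the filter (Sst, Npy and 1 without a symbol). The fit of the 9 animals with at least 50 nuclei held male mate 4 as its only male mate, so no call is read from it. For the interaction a gene without a symbol had a log2 fold change of 6.08 there, against 0.883 in the main fit.

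The gene comparisons between groups could not be run under the stricter gate, nor DRD2 against DRD1A nuclei, and leaving out male mate 2 could not change them, since it is not among the 35 animals. No analysis paired by couple was run, because the labels give no shared replicate numbers. Consecutive label numbers hold a female and a male mate, or a pair of peers of one sex, in every case, but no label says that they lived together, and a block of that kind would lie within 1 pairing type. A term for blocks of 10 label numbers changed no call. Depth limits the low genes: 5 of the genes with the largest folds had a median of 0 CPM.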

Other observations

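Gpr6, Fig4 and Ak9, all among the 10 genes lowered most against the D2 set, stand next to each other in the gene order of the RefSeq annotation of MicOch1.0, with 0 genes between Ak9 and Fig4 and between Fig4 and Gpr6. Gpr6 encodes an orphan receptor of D2 neurons, Fig4 a phosphoinositide phosphatase and Ak9 an adenylate kinase. In Otof/Foxp2 nuclei and the D2 set they stood at 39.3 ± 44.1 and 1052 ± 202, 23.5 ± 21.1 and 378 ± 99.8, and 9.64 ± 10.4 and 132 ± 65.6 CPM (SD, n = 35). The genes beside them had smaller log2 fold changes, -0.36 (SE 0.04) for Wasf1, -0.20 (SE 0.07) for Cdc40 and -0.57 (SE 0.13) for Zbtb24. Of 43 named genes 40 were found in that annotation. The other named genes within 10 genes of each other were Hcrtr2 and Mlip, with 2 genes between them, and Dhx40 and Ppm1e, with 8. How reads were assigned to neighbouring genes is not given in the sources used here.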
